A study of Mus musculus with 6 samples.

Results

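The 56 genes described here encode the collagens, laminins and other extracellular matrix proteins of blood vessels. They were picked by name, with no measured value in the rule, but with earlier results of these data known. They were found on the array through the accession of each probe that is not a control spot. Of the 56 genes, 54 had a probe (74 of 55681 probes), 48 were tested, and Col6a3 and Col12a1 had no matched probe. They fall into 21 genes of the basement membrane, 14 of the interstitial matrix and 21 of other vascular matrix. Total RNA of endothelial cells sorted by fluorescence from mouse skin was hybridised to 6 single-colour arrays, 3 from wild-type mice and 3 from APJ knockout mice, in which Aplnr, the gene of the apelin receptor, is disrupted. The strain was C57Bl/6J in both groups, and the cells were not treated after sorting. The knockout allele and the surface markers of the sort are not given in the sources used here. An embryonic day stands in the names of the scanner files alone. By those names the skin was embryonic and not adult, and no other source used here gives the age. Each label carries a mouse number, but how many animals gave each RNA is not stated, so p-values speak of the spread among these 6 arrays and no more.

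The basement membrane is a thin sheet beneath the endothelium, and endothelial cells secrete much of it themselves. Networks of type IV collagen and of laminin trimers are tied together in it by nidogens and by the heparan sulfate proteoglycans perlecan and agrin. The interstitial matrix lies outside that sheet. Its fibrillar collagens and small proteoglycans are made mainly by fibroblasts and mural cells, so in sorted endothelial cells it serves as a contrast. Fibronectin, thrombospondins and tenascin belong to the provisional matrix of growing or injured vessels.

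Levels are log2 intensities relative to the 75th percentile of the same array, so a level below 0 lies under that percentile, and every difference is the knockout mean minus the wild-type mean on that log2 scale, ± its standard error (SE) from the fit. The scanner software called 50.3% to 57.97% of an array's probes well above background. Replicates 1 and 2 of both genotypes shared slide 1, and replicates 3 of both shared slide 2. Aplnr itself read 3.35, 3.77 and 3.82 in wild-type replicates 1 to 3 and 1.89, 1.71 and 2.26 in the knockout replicates, a fall in all 3 knockout samples (-1.69 ± 0.19, adjusted p = 0.0236 by limma). That adjusted p was 0.0787 when blocked on replicate number and ranged from 0.0355 to 0.134 with 1 array left out, staying below 0.05 only without knockout replicate 3. All 14 pan-endothelial markers were well above background on all 6 arrays, with a summed linear signal of 693 to 742 times the percentile in wild type and 722 to 778 in the knockout. Bulk RNA cannot tell fewer cells of a type from less RNA per cell.

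No vascular matrix gene passed the adjusted threshold of 0.05 by limma in either direction, where 0.553% of the 24245 genes and unnamed probes tested did (0.367% rose and 0.186% fell). At an unadjusted p below 0.05 by limma, 11 of the 48 tested members (22.9%) were picked out, beside 8.02% of everything tested. Of these, 8 had higher and 3 had lower signal in the knockout, beside 4.45% and 3.57% of everything tested. The 3 knockout arrays lay wholly outside the range of the wild-type arrays for 13 of the 48 (27.1%), beside 12.2% of everything tested. They lay above it for 7 and below it for 6, beside 6.37% and 5.86%. Since the members were chosen with earlier results of these data known, the shares given here for members are not those of an independent list. The difference was above 0 for 23 of the 48, beside 43.6% of everything tested. The median difference over the 48 was -0.01, beside -0.02 over everything tested, and the differences ran from -1.09 to 0.69. The genes with the smallest p were fibronectin and thrombospondin 1 among those with higher signal and the laminin chain Lama1 and the Egfl7 paralogue Egfl8 among those with lower signal. With slide as a block, Fn1 and Thbs1 rose and Egfl8 fell, in a fit in which 185 of everything tested rose and 101 fell, beside 89 and 45 without the block. Of the 48, 43 were well above background on all 6 arrays. Col4a4, Postn and Thbs2 entered through the wild-type arrays alone, and Col5a3 through the knockout arrays alone. Lamb1 also entered through the wild-type arrays, since its spot on knockout replicate 3 was left out as an outlier.

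**Figure D1:**
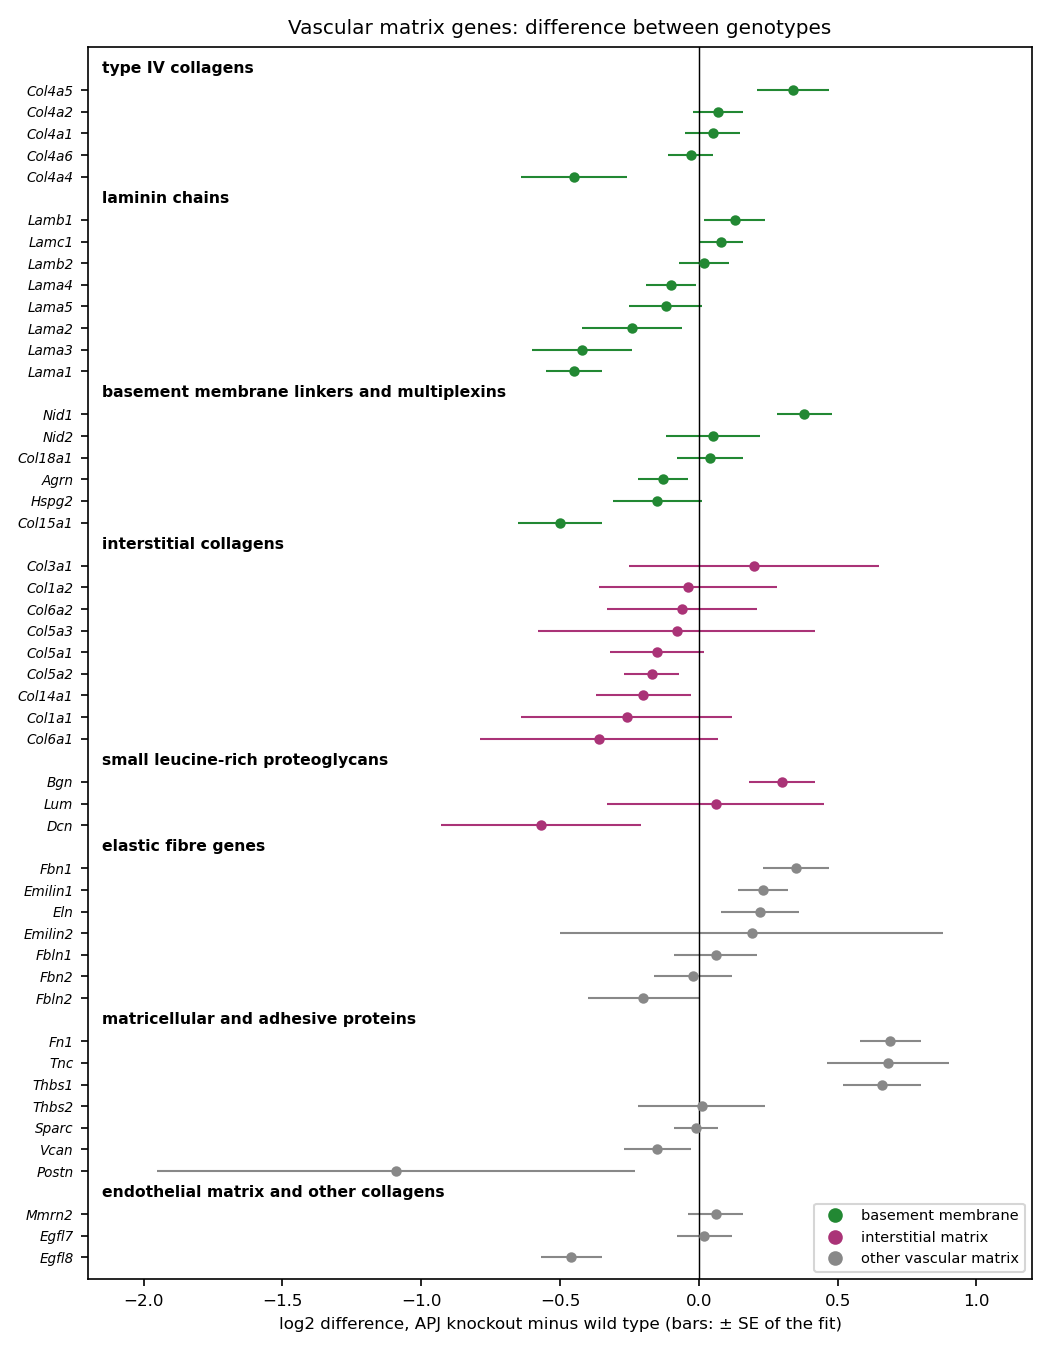
The log2 difference between APJ knockout and wild type is plotted on the horizontal axis for the 48 tested genes, grouped by role, with a bar of ± SE of the limma fit. Fn1, Tnc and Thbs1 lie farthest right at 0.66 to 0.69, the interstitial collagens and small leucine-rich proteoglycans have median SEs of 0.32 and 0.36, and Postn lies farthest left at -1.09 with an SE of 0.86.

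The type IV collagens form the network of the basement membrane. Col4a1 and Col4a2, on chromosome 8, encode the chains of the trimer found in almost all basement membranes, while Col4a5 and Col4a6, on the X chromosome, belong to trimers of more restricted tissues. Each pair is transcribed head to head from neighbouring starts. The RefSeq promoter windows (300 bases, most of them before the first base, build GRCm38.p6) are shown because the pairs differed, on the probe used for each gene, in how alike their members read. A tie between these windows and the signal was not tested. The windows of Col4a1 (chr8:11312777-11313076, minus strand) and Col4a2 (chr8:11312555-11312854, plus strand) share 78 bases, and their first bases lie 21 bases apart. Those of Col4a5 (chrX:141475169-141475468, plus strand) and Col4a6 (chrX:141474027-141474326, minus strand) share 0 bases, and their first bases lie 1343 bases apart. Each sequence runs 5′ to 3′ on its gene's own strand, and the capitals mark matches on either strand to CCAAT (read as ATTGG on the other strand) or to GGGCGG (read as CCGCCC).
Col4a1: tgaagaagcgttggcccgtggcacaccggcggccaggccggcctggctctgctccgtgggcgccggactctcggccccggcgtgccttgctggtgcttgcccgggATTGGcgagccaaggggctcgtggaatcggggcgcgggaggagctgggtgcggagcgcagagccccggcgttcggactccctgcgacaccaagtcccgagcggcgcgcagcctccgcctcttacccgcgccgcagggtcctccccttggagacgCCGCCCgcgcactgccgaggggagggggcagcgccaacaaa
Col4a2: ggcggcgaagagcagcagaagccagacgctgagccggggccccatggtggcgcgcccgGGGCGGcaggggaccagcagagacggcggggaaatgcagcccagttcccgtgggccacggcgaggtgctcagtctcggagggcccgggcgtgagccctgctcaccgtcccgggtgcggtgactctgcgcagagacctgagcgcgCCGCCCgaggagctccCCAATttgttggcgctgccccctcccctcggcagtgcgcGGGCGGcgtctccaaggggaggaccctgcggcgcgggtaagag
Col4a5: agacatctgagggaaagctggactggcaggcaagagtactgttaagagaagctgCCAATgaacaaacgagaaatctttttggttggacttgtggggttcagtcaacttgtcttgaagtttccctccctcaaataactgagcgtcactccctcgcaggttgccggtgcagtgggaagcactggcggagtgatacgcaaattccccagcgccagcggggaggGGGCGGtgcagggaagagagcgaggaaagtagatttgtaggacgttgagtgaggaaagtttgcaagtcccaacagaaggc
Col4a6: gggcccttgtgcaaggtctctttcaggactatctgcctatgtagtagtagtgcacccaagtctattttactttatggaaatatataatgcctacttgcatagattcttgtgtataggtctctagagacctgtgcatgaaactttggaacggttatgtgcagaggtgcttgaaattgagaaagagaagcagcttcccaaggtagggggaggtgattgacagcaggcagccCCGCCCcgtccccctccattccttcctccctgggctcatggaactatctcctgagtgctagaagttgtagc
The Col4a1 window held 1 match to CCAAT and 1 to GGGCGG, the Col4a2 window 1 and 3, the Col4a5 window 1 and 1, and the Col4a6 window 0 and 1. The GGGCGG match of Col4a1 and the last one of Col4a2 are the same bases, read on opposite strands within the shared stretch. The TATA box letters TATAAA had 0 matches in each of the 4 windows. Of the 32851 mouse promoter windows of this length, 37.4% held CCAAT, 35.7% held GGGCGG and 13.6% held TATAAA. These matches describe the letters of the windows only.

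Col4a1 read 7.19, 7.17 and 7.07 in wild type and 7.21, 7.29 and 7.06 in the knockout. Col4a2 read 6.67, 6.77 and 6.67 in wild type and 6.75, 6.86 and 6.72 in the knockout. The genotypes overlapped for both genes, and the pair differed by similar small amounts (0.05 ± 0.10, 95% interval -0.19 to 0.28, for Col4a1 and 0.07 ± 0.09, interval -0.14 to 0.28, for Col4a2). Col4a5 read -2.46, -2.40 and -2.62 in wild type and -2.17, -1.95 and -2.34 in the knockout, with every knockout array above every wild-type array (0.34 ± 0.13, adjusted p = 0.521 by limma). Its neighbour Col4a6 read between -1.93 and -1.83 in wild type and between -1.98 and -1.85 in the knockout (-0.03 ± 0.08). A second, dimmer Col4a6 probe differed by 0.37, and Col4a6 was the only one of the 13 members with more than 1 tested probe whose probes disagreed in sign. Col4a4, a chain of the kidney and inner-ear trimer, read -3.89, -3.87 and -3.59 in wild type and -4.01, -4.64 and -4.04 in the knockout, where 2 of 3 arrays were well above background. Its difference was -0.45 ± 0.19 (adjusted p = 0.652 by limma), and its partner chain Col4a3 was well above background on 0 arrays. Of the 5 tested type IV collagens, 1 had an unadjusted p below 0.05 by limma, beside 8.02% of everything tested. The spread of the group was small, with a median standard deviation (SD) within a genotype of 0.09.

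Laminins are trimers of an alpha, a beta and a gamma chain. Endothelial basement membranes carry the alpha chains Lama4 and Lama5 with the gamma chain Lamc1 and the beta chains Lamb1 and Lamb2. These chains differed little between genotypes, with differences of -0.10 ± 0.09 for Lama4, -0.12 ± 0.13 for Lama5, 0.13 ± 0.11 for Lamb1, 0.02 ± 0.09 for Lamb2 and 0.08 ± 0.08 for Lamc1. The Lamb1 spot of knockout replicate 3 was marked as an outlier by the scanner software, so that fit rests on 3 wild-type and 2 knockout arrays. For Lamc1 the 95% interval ran from -0.11 to 0.28, and for Lama4 from -0.31 to 0.11.

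The alpha chains less typical of endothelium gave the larger differences. Lama1, an early embryonic chain on chromosome 17, read 0.48, 0.34 and 0.29 in wild type and -0.20, -0.07 and 0.03 in the knockout. All 3 knockout arrays lay below all wild-type arrays, at 0.733 times the wild-type signal (-0.45 ± 0.10, adjusted p = 0.185 by limma). Lama3, the epithelial chain of the laminin beneath keratinocytes, read -1.06, -0.95 and -0.41 in wild type and -1.20, -1.15 and -1.32 in the knockout (-0.42 ± 0.18, adjusted p = 0.644 by limma). The genotypes did not overlap, but the difference was -0.17 on slide 1 and -0.92 on slide 2, where wild-type replicate 3 stood above the other arrays. Its epithelial partner Lamb3 was well above background on that array alone. The summed linear signal of 14 keratinocyte markers was also highest there, at 39.2 times the percentile, beside 11.5 and 18.5 on the other wild-type arrays and 11.6 to 12.8 in the knockout. Of those 14, 8 were well above background on all 6 arrays and Dsc3 on none, and their part in the Lama3 difference was not tested. Lama2, the chain of muscle and nerve, read -2.59, -2.26 and -2.85 in wild type and -2.57, -2.93 and -2.93 in the knockout, with overlap (-0.24 ± 0.18). Of the 8 tested laminin chains, 3 lay above 0 and 5 below. Lama1 alone had an unadjusted p below 0.05 by limma, beside 8.02% of everything tested.

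The linkers and multiplexins contain a pair of genes that read in opposite directions. Nidogen 1, on chromosome 13, joins the laminin and collagen networks, and its gene Nid1 read 4.51, 4.58 and 4.46 in wild type and 4.96, 4.97 and 4.75 in the knockout. Every knockout array was above every wild-type array, by 1.299-fold on average (0.38 ± 0.10, adjusted p = 0.257 by limma), and its 3 probes differed by 0.28, 0.38 and 0.48. Nid2, the related linker, read 4.54, 4.41 and 4.18 in wild type and 4.53, 4.65 and 4.09 in the knockout, with overlap (0.05 ± 0.17). The difference between the nidogens was not tested.

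Col15a1 and Col18a1 encode multiplexins, basement membrane collagens whose C-terminal fragments are known to restrain angiogenesis. Col15a1, on chromosome 4, read 0.84, 0.92 and 1.10 in wild type and 0.19, 0.47 and 0.70 in the knockout. Its genotypes did not overlap (-0.50 ± 0.15, 0.708 times wild type, adjusted p = 0.356 by limma), and its 3 probes differed by -0.37, -0.29 and -0.50. Col18a1 read between 7.46 and 7.73 in wild type and between 7.47 and 7.76 in the knockout (0.04 ± 0.12, 95% interval -0.25 to 0.32). Agrn, the proteoglycan agrin, read 5.96, 6.01 and 6.09 in wild type and 5.79, 5.92 and 5.95 in the knockout, a small difference without overlap (-0.13 ± 0.09, adjusted p = 0.964 by limma). Hspg2, perlecan, read 5.92, 6.16 and 6.30 in wild type and 5.74, 5.97 and 6.21 in the knockout, with overlap (-0.15 ± 0.16). Of the 19 tested basement membrane genes, 7 (36.8%) had genotypes that did not overlap, beside 12.2% of everything tested. Of these, 2 had higher and 5 had lower signal in the knockout (6.37% and 5.86% of everything tested), and Col4a4, among the 5, entered the test through the wild-type arrays alone.

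**Figure D2:**
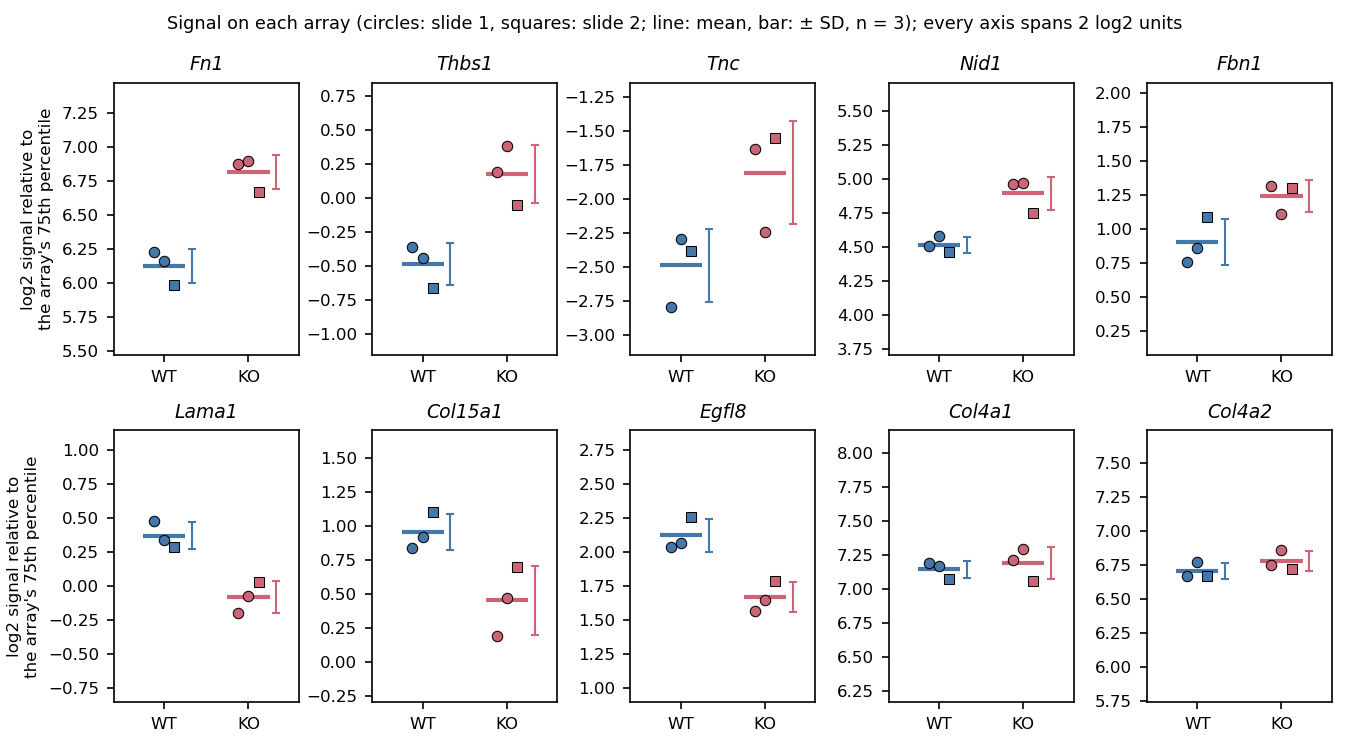
The log2 signal relative to the array's 75th percentile is plotted for 10 vascular matrix genes on each of the 6 arrays, with the mean and ± SD of 3 arrays, circles for slide 1 and squares for slide 2, and each vertical axis spanning 2 log2 units. The genotypes are apart for 8 of the genes and overlap for Col4a1 and Col4a2.

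For 9 of the 12 tested interstitial matrix genes the difference between genotypes was smaller than the SD between arrays of 1 genotype, the exceptions being Col5a2, Bgn and Dcn. The genotypes overlapped in all 12, where 12.2% of everything tested did not overlap, and 10 of the 12 had an SD within a genotype above the median of everything tested, 0.16. The median SD was 0.52 for these 12 genes and 0.11 for the 19 basement membrane genes. Col1a1, a chain of type I collagen, read -0.30, 0.22 and -0.31 in wild type and 0.47, -1.04 and -0.60 in the knockout (-0.26 ± 0.38). Its partner chain Col1a2 read 0.96, 1.52 and 1.13 in wild type and 1.77, 0.51 and 1.23 in the knockout (-0.04 ± 0.32). Col3a1, type III collagen, read -0.36, 0.69 and -0.33 in wild type and 1.07, -0.10 and -0.37 in the knockout (0.20 ± 0.45). In all 3 genes knockout replicate 1 was the highest array and wild-type replicate 2 the highest of its genotype.

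Type VI collagen, a microfibril around cells, followed the same order of arrays at its upper end. Col6a1 read -1.99, -1.16 and -1.80 in wild type and -1.08, -2.71 and -2.23 in the knockout (-0.36 ± 0.43, 95% interval -1.39 to 0.68). Col5a3, a minor fibril-regulating chain, read -4.77, -2.91 and -2.85 in wild type, where 2 of 3 arrays were well above background, and -3.63, -3.70 and -3.43 in the knockout (-0.08 ± 0.50). The other chains of that type were steadier. Col5a1 read -0.19, 0.14 and -0.25 in wild type and -0.10, -0.13 and -0.54 in the knockout (-0.15 ± 0.17), and Col5a2 read -0.15, -0.13 and -0.29 and then -0.37, -0.24 and -0.48 (-0.17 ± 0.10). Col14a1, which sits on the surface of collagen fibrils, read -3.69, -3.63 and -4.04 in wild type and -4.14, -3.70 and -4.11 in the knockout (-0.20 ± 0.17). Of the 9 interstitial collagens tested, 8 lay below 0 and 1 above, and 0 had an unadjusted p below 0.05 by limma, beside 8.02% of everything tested.

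The small leucine-rich proteoglycans bind collagen fibrils and growth factors. Bgn, biglycan, read 1.71, 1.49 and 1.43 in wild type and 1.85, 1.98 and 1.69 in the knockout, with overlap (0.30 ± 0.12, adjusted p = 0.590 by limma). Dcn, decorin, read -1.97, -1.76 and -0.92 in wild type and -1.66, -2.70 and -2.01 in the knockout (-0.57 ± 0.36, interval -1.42 to 0.29). Lum, lumican, read -2.07, -2.33 and -2.97 in wild type and -1.60, -2.82 and -2.78 in the knockout (0.06 ± 0.39). Biglycan, with an SD of 0.15, was the steady member of the group beside 0.54 for decorin and 0.59 for lumican.

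**Figure D3:**
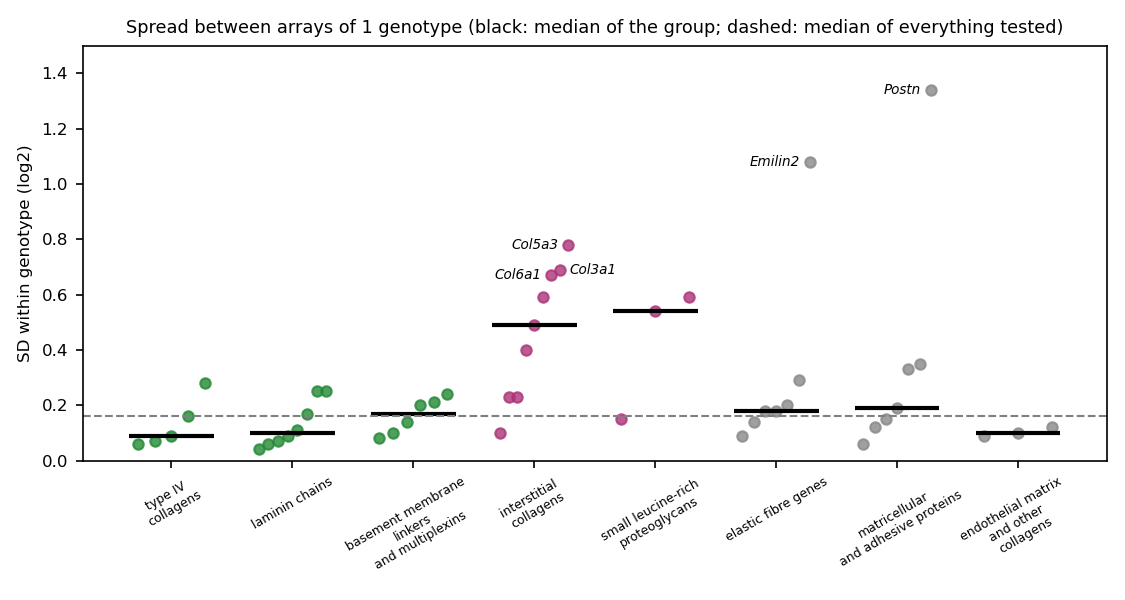
The SD of log2 signal between arrays of the same genotype is plotted on the vertical axis for each of the 48 tested genes, by role group, with a black bar at the group median and a dashed line at 0.16, the median of everything tested. The interstitial collagens and small leucine-rich proteoglycans have medians of 0.49 and 0.54, while the type IV collagens and laminin chains have 0.09 and 0.10.

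Read array by array, the medians over the genes of each class overlapped between genotypes. A median near 0 does not describe single genes, since the basement membrane holds members such as Nid1 and Col15a1 that read in opposite directions. The median deviation of the basement membrane genes from their wild-type means was -0.02, 0.02 and -0.02 in wild type and -0.01, -0.03 and -0.06 in the knockout. That of the interstitial genes was -0.21, 0.28 and -0.13 in wild type and 0.38, -0.26 and -0.32 in the knockout. Knockout replicate 1 was the highest array for 6 of the 12 interstitial genes and wild-type replicate 2 for 3, while knockout replicate 2 was the lowest for 5 and knockout replicate 3 for 3. The median difference was -0.03 for the basement membrane (0.01 on slide 1 and -0.06 on slide 2) and -0.11 for the interstitial matrix (-0.09 and -0.20). With 1 array left out, the interstitial median ranged from -0.28 to 0.05, being 0.05 without wild-type replicate 2. The difference between the classes was not tested.

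**Figure D4:**
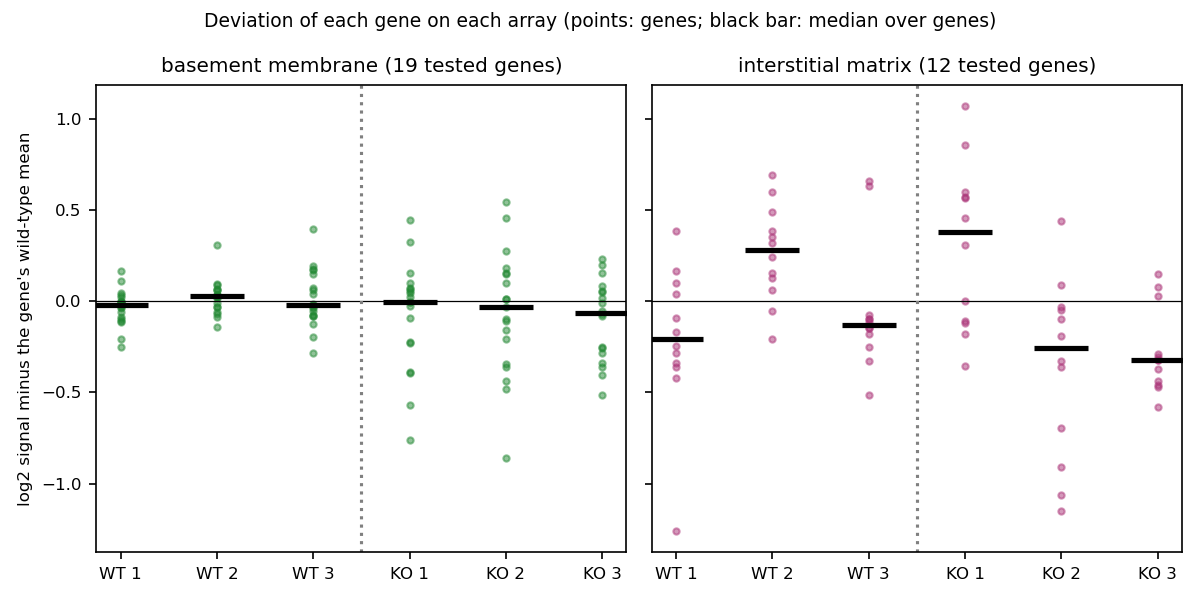
The log2 signal of each gene minus its wild-type mean is plotted on the vertical axis for the 6 arrays, for 19 basement membrane genes and 12 interstitial matrix genes, with a black bar at the median over genes. The basement membrane medians stay between -0.06 and 0.02, and the interstitial medians are highest at 0.28 in wild-type replicate 2 and 0.38 in knockout replicate 1.

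Markers of matrix-producing cells were measured beside these genes. Of 15 fibroblast markers, 7 were well above background on all 6 arrays and Dpt, Osr2 and Tcf21 on none, and their summed linear signal was 71.0 to 75.4 times the percentile in wild type and 81.9 to 84.7 in the knockout. The brightest members, Thy1 and Meox2, weigh most in that sum, so it cannot show how the dimmer fibroblast markers varied from array to array. Thy1 differed by 0.42 and Meox2 by -0.03. Of the 9 tested fibroblast markers, 3 lay above 0 and 6 below, with a median difference of -0.20, so the higher sum does not describe most of them. Knockout replicate 1, the highest array for Col1a1, was the highest for 1 of the 9 tested fibroblast markers (Dlk1). Wild-type replicate 1 was the highest for 3, wild-type replicate 3 and knockout replicate 3 for 2 each, and wild-type replicate 2 for 1. Among the 6 untested, dim markers, Pdgfra, Twist1, Prrx1 and Osr2 read highest on knockout replicate 1, and Dpt and Tcf21 on wild-type replicate 2. Pdgfra was well above background on 4 arrays, and Twist1 and Prrx1 on 3 each. Of 12 mural cell markers, 8 were well above background on all 6 arrays and the smooth muscle genes Myh11 and Cnn1 on none, with sums of 3.87 to 5.10 in wild type and 4.19 to 5.07 in the knockout. The mural sum was highest on wild-type replicate 2 (5.10) and knockout replicate 1 (5.07). Each of the 5 skeletal muscle precursor markers was well above background on 0 arrays. The part of fibroblast and mural cell RNA in the interstitial signal was not tested.

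Elastic fibres are built from elastin on a scaffold of fibrillin, fibulin and emilin proteins. Fbn1, the fibrillin of mature microfibrils, read 0.76, 0.86 and 1.09 in wild type and 1.32, 1.11 and 1.30 in the knockout, without overlap (0.35 ± 0.12, adjusted p = 0.470 by limma). Emilin1 read -0.68, -0.65 and -0.50 in wild type and -0.29, -0.38 and -0.45 in the knockout, also without overlap (0.23 ± 0.09, adjusted p = 0.609 by limma). The Emilin1 difference was 0.33 on slide 1 and 0.04 on slide 2. Eln, elastin, read -3.80, -3.34 and -3.50 in wild type and -3.34, -3.26 and -3.40 in the knockout, with overlap (0.22 ± 0.14). Fbln2 read 0.70, 1.32 and 1.32 in wild type and 1.01, 0.68 and 1.06 in the knockout (-0.20 ± 0.20), and the differences of Fbn2 and Fbln1 were -0.02 and 0.06.

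Emilin2 stood apart by slide, not by genotype. It read 0.00, -0.15 and 2.03 in wild type and 0.30, 0.27 and 1.87 in the knockout, so replicate 3 of each genotype was higher than the others by 1.85 on average. A slide difference this large in either direction was seen in 0.227% of everything tested. Of the 12 tested macrophage markers, 10 were higher on slide 2 and 2 were not, with slide differences from -0.20 to 1.86 and a median of 0.61. The summed macrophage markers were highest in replicate 3 of each genotype, at 21.0 and 18.9 times the percentile. The part of myeloid RNA in the Emilin2 signal was not tested. Of the 7 tested elastic fibre genes, 5 lay above 0 and 2 below.

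The matricellular and adhesive proteins held the members with the smallest p. Fibronectin, the main adhesive glycoprotein of provisional matrix and a ligand of endothelial integrins, is encoded by Fn1 on chromosome 1. It read 6.23, 6.16 and 5.99 in wild type and 6.88, 6.90 and 6.67 in the knockout. Every knockout array was above every wild-type array, by 1.613-fold on average (0.69 ± 0.11, 95% interval 0.43 to 0.95), and the adjusted p by limma was 0.0683. The difference was 0.70 on slide 1 and 0.68 on slide 2. Blocking on slide gave an adjusted p by limma of 0.0195 and blocking on replicate number gave 0.0737, and it ranged from 0.0178 to 0.418 over 14 alternatives.

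Thbs1, on chromosome 2, encodes thrombospondin 1, an inhibitor of angiogenesis and an activator of latent TGF-beta. Thbs1 read -0.36, -0.44 and -0.66 in wild type and 0.19, 0.38 and -0.05 in the knockout, without overlap (0.66 ± 0.14, 1.581-fold, adjusted p = 0.155 by limma). The disrupted gene Aplnr also lies on chromosome 2, as do Fbn1, Egfl7, Lama5 and Col5a1, which differed by 0.35, 0.02, -0.12 and -0.15. A bearing of that shared chromosome on the Thbs1 signal was not tested. The difference was 0.68 on slide 1 and 0.62 on slide 2, and its adjusted p by limma was 0.0351 with slide as a block and ranged from 0.0351 to 0.623 over 14 alternatives. Its paralogue Thbs2 read -4.21, -3.78 and -3.81 in wild type and -3.50, -4.35 and -3.92 in the knockout (0.01 ± 0.23, interval -0.55 to 0.57). Tnc, tenascin C, a protein of developing and remodelling tissue, read -2.79, -2.29 and -2.38 in wild type and -1.63, -2.24 and -1.55 in the knockout. Its genotypes did not overlap, although knockout replicate 2 lay close to the wild-type arrays (0.68 ± 0.22, 1.602-fold, adjusted p = 0.428 by limma), and its second probe differed by 0.86. With normexp background correction, which adds an offset of 50 and so draws differences of dim probes towards 0, the Tnc difference was 0.34. The exact two-sided permutation p was 0.1 for Fn1, Thbs1 and Tnc, the smallest that 3 against 3 arrays can give.

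Markers of other cell populations were measured beside these genes, and the lymphatic and platelet sums were higher on every knockout array than on any wild-type array. The 5 lymphatic endothelial markers were all well above background on all 6 arrays, summing to 15.7 to 18.3 times the percentile in wild type and 23.6 to 27.2 in the knockout. The 6 platelet and megakaryocyte markers, also well above background throughout, summed to 6.26 to 6.80 in wild type and 7.74 to 9.92 in the knockout. Single macrophage markers also read higher in the knockout. Of 12 tested, 11 lay above 0, beside 43.6% of everything tested, with a median difference of 0.69. At an unadjusted p below 0.05 by limma, 8 were picked out, all higher in the knockout, beside 4.45% of everything tested. The genotypes of 6 did not overlap, all higher, beside 6.37% of everything tested. Lyz2, C1qa, C1qc, Adgre1 and Cd14, all among the 8, entered the test through the knockout arrays alone, where they read higher. The median deviation of the tested macrophage markers from the wild-type means was -0.16, -0.44 and 0.44 in wild type and 0.60, 0.55 and 1.34 in the knockout. The summed macrophage signal, in which the brighter markers weigh most, overlapped at 12.1 to 21.0 and 13.5 to 18.9, with 7 of 13 markers well above background on all 6 arrays. The part of these populations in the differences of Fn1, Thbs1 and Tnc was not tested.

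The remaining matricellular genes did not separate the genotypes. Sparc, a collagen-binding protein abundant in endothelium, read 9.86, 9.87 and 9.92 in wild type and 9.83, 9.96 and 9.83 in the knockout (-0.01 ± 0.08, 95% interval -0.21 to 0.19). Postn, periostin, a product of fibroblasts, had the widest spread of all members, reading -3.93, -3.18 and -2.55 in wild type and -2.52, -6.05 and -4.35 in the knockout, where 2 of 3 arrays were well above background. Its difference of -1.09 ± 0.86 was smaller than its SD within a genotype of 1.34. It ran from -1.98 without knockout replicate 1 to -0.21 without knockout replicate 2. Vcan, the large proteoglycan versican, differed by -0.15 ± 0.12. Of the 7 tested genes of the group, 3 had an unadjusted p below 0.05 by limma, all with higher signal in the knockout, beside 4.45% of everything tested.

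Endothelial cells also secrete matrix proteins of their own. Egfl7, a secreted protein that guides vessel tube formation, read 8.82, 9.01 and 8.80 in wild type and 8.86, 8.98 and 8.85 in the knockout (0.02 ± 0.10, 95% interval -0.21 to 0.25). Mmrn2, a ligand of the endothelial lectin Clec14a, read 6.84, 6.85 and 6.73 in wild type and 6.80, 6.99 and 6.81 in the knockout (0.06 ± 0.10). Both overlapped between genotypes, with an SD within a genotype of at most 0.10. Egfl8, the paralogue of Egfl7 on chromosome 17, read 2.04, 2.07 and 2.26 in wild type and 1.57, 1.65 and 1.79 in the knockout. All 3 knockout arrays were below all wild-type arrays, at 0.73 times the wild-type signal (-0.46 ± 0.11, adjusted p = 0.191 by limma). The difference was -0.44 on slide 1 and -0.48 on slide 2. Its adjusted p by limma was 0.0479 with slide as a block and ranged from 0.0479 to 0.781 over 14 alternatives. The difference between the paralogues was not tested.

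The 6 untested members were dim. Col4a3 and the short-chain collagens Col8a1 and Col8a2, which form the sheet beneath corneal and some vascular endothelium, were well above background on 0 of the 6 arrays. Lamb3 was well above background on 1 array, the plasma adhesive protein gene Vtn on 2 and the transmembrane collagen gene Col13a1 on 4, never on all arrays of a genotype.

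Matrix assembly genes beyond the 56 were read from a pair of further lists. The first holds enzymes and carriers that fold, modify and export collagen. Of its 20 tested genes, 0 passed the adjusted threshold by limma, beside 0.553% of everything tested, and the median difference was 0.06. At an unadjusted p below 0.05, 5 were picked out, all with higher signal in the knockout, beside 4.45% of everything tested. P4ha2, a subunit of prolyl 4-hydroxylase, read 0.50, 0.43 and 0.86 in wild type and 1.19, 1.36 and 1.29 in the knockout, without overlap (0.68 ± 0.13, 1.606-fold, adjusted p = 0.123 by limma). The lysyl hydroxylase genes Plod3 and Plod2 differed by 0.24 ± 0.08 and 0.31 ± 0.11, again without overlap. In Plod3 the genotypes were 3.09, 3.18 and 3.12 against 3.38, 3.38 and 3.36.

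The second list holds 40 other matrix genes, of which 32 were tested, 1 rose and 0 fell by limma, beside 0.367% and 0.186% of everything tested, with a median difference of -0.08. At an unadjusted p below 0.05, 10 were picked out, 5 higher and 5 lower in the knockout, beside 8.02% of everything tested. Tgfbi, an adhesive matrix protein induced by TGF-beta, read 2.58, 2.62 and 2.65 in wild type and 3.40, 3.33 and 3.53 in the knockout, a rise of 1.744-fold (0.80 ± 0.09, adjusted p = 0.0236 by limma). Its adjusted p by limma was 0.0737 when blocked on replicate number and 0.0696 to 0.139 with any 1 array left out, above the threshold in all 6 such fits. Efemp1, a fibulin, read -3.92, -3.23 and -3.77 in wild type and -4.93, -4.89 and -4.82 in the knockout, where 1 of 3 arrays was well above background. It entered the test through the wild-type arrays alone, and its difference was -1.24 as fitted. With normexp background correction it was -0.25, but that setting adds an offset of 50, which by arithmetic draws differences of dim probes towards 0. The size of the Efemp1 difference is not settled here. Ltbp1, which tethers latent TGF-beta to matrix, read -0.93, -0.72 and -0.79 in wild type and -1.39, -1.49 and -1.31 in the knockout, without overlap (-0.58 ± 0.10, 0.668 times wild type, adjusted p = 0.0845 by limma).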

How the data were processed

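Single-colour arrays of 3 wild-type and 3 APJ knockout samples were used. The deposited scanner files hold a linear intensity per spot, per the file headers the output of Agilent Feature Extraction 10.7.3.1, and the processed intensity is that software's background-subtracted value, with no scaling from array to array. In the authors' deposited value table each array's intensity is multiplied by 1 constant, 2.285 to 3.685, of unstated origin, and the scale is linear with no centring by gene. Its column medians were 63.46, 62.09 and 65.15 (wild type) and 66.98, 60.3 and 63.25 (knockout). The deposited intensities were taken to log2 here, and each array's 75th percentile (251.8 to 399.7 in intensity) was subtracted. Spots marked as outliers (126 to 179 of 59305 per array) were left out, and 0 were saturated. A probe was tested if well above background on every array of at least 1 genotype, and a gene was its probe with the highest mean signal. Symbols came from RefSeq accessions, for 47.44% of the 55681 probes. The array's annotation and the RefSeq table follow different builds, so apart from promoter windows (found for 39 of 56 members) no coordinate is printed.

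The linear model was limma 3.58.1 under R 4.3.3 (lmFit and eBayes, genotype alone), with two-sided p-values adjusted by Benjamini-Hochberg over all 24245 features. The fit was tested on simulated data. Same-numbered samples deviated together (correlations of deviations from the group means 0.23, 0.15 and 0.65), which met the rule of over 0.1 for pairing, although differently numbered pairs on slide 1 reached 0.28 and 0.36. Precision is limited by the number of arrays.

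The members and lists were chosen with earlier results of these data known. The rule for full values took up to 4 members of each role group with the smallest p and up to 2 with the widest spread, and up to 3 genes of each further list. Other genes with array values, namely Col1a1, Col1a2, Col3a1, Col4a6, Col18a1 and Sparc, were chosen after their values were seen, as were the steady laminin chains, Vcan, Fbn2 and Fbln1. Alternatives covered normalisation, background correction, the value table, the filter, the probe of a gene, slide, replicate number and each array in turn.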

Additional observations from a re-analysis of the deposited data

How the results depend on the processing

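With slide as a block, 2 members rose (Fn1 and Thbs1) and 1 fell (Egfl8), while 185 of everything tested rose and 101 fell, beside 89 and 45 without it. With normexp on the median signal, an alternative chosen after seeing the data, 1 member rose (Fn1), Col5a3 turned to 0.02 and Thbs2 to -0.04. That setting adds an offset of 50 to the intensities, which by arithmetic draws differences of dim probes towards 0. Under it these differences moved by over 1.5 times, all towards 0: Tnc to 0.34, Postn to -0.25, Col4a5 to 0.13, Col4a4 to -0.16, Col6a1 to -0.13, Col14a1 to -0.04, Dcn to -0.33, Eln to 0.01, Emilin2 to 0.12, Lama2 to -0.12, Plod2 to 0.14, Efemp1 to -0.25 and Ltbp1 to -0.37. With the mean of a gene's probes, Agrn was -0.07 and Lama2 -0.39. Lamb1 was 0.20 with quantile normalisation and 0.08 with slide as a block. Normexp on the mean signal was not run, since the scanner files used here carry the median signal. With no filter on dim probes, 3 of everything tested rose and 0 fell among 49286. Blocking on replicate number left 4 that rose and 1 that fell, and this replicate block changed no call of a member. With 1 array left out, 11 to 45 rose, 2 to 28 fell, and 0 members passed in any of the 6 such fits. The basement membrane median was 0.02 with the mean of a gene's probes and -0.06 to -0.03 with 1 array left out, and the interstitial median was -0.28 to 0.05. Small differences turned in sign with 1 array left out: Egfl7 ranged from -0.02 to 0.09, Emilin2 from -0.34 to 0.89, Thbs2 from -0.20 to 0.23, Lum from -0.34 to 0.27, Nid2 from -0.07 to 0.22, Col5a3 from -0.71 to 0.25 and Col4a1 from -0.01 to 0.11. Others kept their sign but moved by over 1.5 times: Postn ranged from -1.98 to -0.21 and Col6a1 from -0.82 to -0.01 (without knockout replicates 1 and 2), Dcn from -0.80 to -0.25, Hspg2 from -0.27 to -0.03, Fbln2 from -0.40 to -0.08, Col14a1 from -0.34 to -0.12, Col5a1 from -0.23 to -0.01, Lama2 from -0.38 to -0.09, Lama3 from -0.55 to -0.22, Col4a4 from -0.56 to -0.24, Eln from 0.09 to 0.32, Agrn from -0.17 to -0.08 and Lamb1 from 0.07 to 0.18. The cause of these shifts with 1 array left out was not tested. Of the single-gene values under the alternatives, Aplnr aside, 525 kept their direction and side of the threshold, 4 newly passed it, 8 no longer did and 17 turned. The 8 that no longer passed are all of Tgfbi, at 0.249 (adjusted p by limma) with no filter and as given above otherwise. Signal over background limits the dim members most, since Col4a4, Col5a3, Postn and Thbs2 were not well above background on every array.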

Other observations

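Members with more than 1 tested probe give a further reading of the same RNA. In 12 of 13 such genes all tested probes differed in the same direction. For Lama2, the laminin chain of muscle and nerve, the dimmer probe differed by -0.54, beside -0.24 for the brighter one. For Lama3 the probes differed by -0.42 and -0.49, and for Hspg2 by -0.15 and -0.18. Probes of 1 gene share their RNA samples and are not replicates of the genotype.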
